A study of Mus musculus with 20 samples.

Results

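This section describes the transcripts of 10 genes of the transforming growth factor beta (TGF-β) superfamily and its close partners, chosen by name from the 25219 genes of the expression table. They are Tgfb1, Tgfb2 and Tgfb3 (the 3 TGF-β ligands), Inhba and Inhbb (the β subunits that dimerize into activin A and activin B), Bmp2, Bmp4 and Bmp6 (bone morphogenetic proteins, BMPs), Fst (follistatin, a secreted protein that binds and neutralizes activins) and Tgfbi (a secreted matrix protein named for its induction by TGF-β, and not itself a ligand). RNA was taken from inguinal white adipose tissue (iWAT) and brown adipose tissue (BAT) of males, and each tissue is represented by 5 libraries per genotype, Control or Ai-α4KO. In Ai-α4KO mice the floxed Igbp1 gene, which encodes the phosphatase-binding protein α4, was deleted by the tamoxifen-inducible CreERT2 recombinase under the adiponectin promoter, which is active in adipocytes and not in the other cells of the tissue. Both genotypes received tamoxifen, 5 injections of 100 mg/kg over 6 days from 2 months of age, and the RNA is from 1 week after recombination. The study's methods describe Control mice as carrying the floxed alleles without the Cre transgene, while the sample labels call them WT. The labels do not say whether the iWAT and BAT libraries of a given number came from the same mouse, and the p-values measure the spread between libraries.

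TGF-β superfamily ligands are secreted dimers that bind pairs of type I and type II serine/threonine kinase receptors. TGF-βs and activins lead to phosphorylation of the transcription factors SMAD2 and SMAD3, and BMPs to that of SMAD1, SMAD5 and SMAD9. In adipose tissue TGF-β and activin are known for restraining the differentiation of preadipocytes and for promoting matrix production, and several BMPs for promoting commitment to the white or brown adipocyte lineage. All comparisons below are of messenger RNA and do not show the amount of active ligand, most of which is held latent or bound by antagonists.

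Library totals ran from 24023371 to 50384446 counts. Levels of 1 gene across libraries are given as CPM, counts scaled to a common library size after TMM scaling of all 20 libraries. Levels of different genes are compared as FPKM, which is also divided by transcript length. A gene was called when the adjusted p (edgeR's quasi-likelihood test, Benjamini-Hochberg over all genes tested) was below 0.01 and the fold change at least 2, and the interaction when its adjusted p was below 0.01. The targeted gene Igbp1, on chromosome X from 100494291 to 100516125, was at 67.2 ± 7.01 CPM in Control and 10.8 ± 0.394 in Ai-α4KO iWAT (SD, n = 5), and at 93.9 ± 7.29 and 17.0 ± 4.83 in BAT. Adipocyte markers were abundant in every library, with a summed level between 14140 and 40911 CPM over 7 genes. Control iWAT libraries 1 and 4 stood apart in 5 B cell markers, with summed levels of 385 and 154 CPM against at most 6.86 in the other 3 Control iWAT libraries, and in 5 T cell markers, at 156 and 178 CPM against 6.30 to 7.55. Skeletal muscle markers (6 genes) summed to 759 to 7885 CPM in Control and 10886 to 36061 CPM in Ai-α4KO BAT, and also reached 6505 CPM in Control iWAT library 4 and 3579 CPM in Ai-α4KO iWAT library 1. In bulk tissue, fewer cells of a type and less RNA per cell cannot be told apart.

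Promoter sequences are shown for the 3 members called in at least 1 tissue, Bmp6, Tgfbi and Tgfb2. Each run is the 250 bases before the annotated start in RefSeq (GRCm38.p6), 5′ to 3′ on the strand of the gene, at chr13:38345466-38345715 (plus strand) for Bmp6, chr13:56609336-56609585 (plus) for Tgfbi and chr1:186705990-186706239 (minus) for Tgfb2. Capitals mark matches on either strand to motifs chosen after the fold changes were known.
Bmp6: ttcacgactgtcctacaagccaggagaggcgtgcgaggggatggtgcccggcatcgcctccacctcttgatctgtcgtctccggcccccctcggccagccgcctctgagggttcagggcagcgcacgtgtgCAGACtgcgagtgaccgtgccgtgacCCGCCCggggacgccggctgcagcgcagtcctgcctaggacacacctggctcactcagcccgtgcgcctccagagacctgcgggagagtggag
Tgfbi: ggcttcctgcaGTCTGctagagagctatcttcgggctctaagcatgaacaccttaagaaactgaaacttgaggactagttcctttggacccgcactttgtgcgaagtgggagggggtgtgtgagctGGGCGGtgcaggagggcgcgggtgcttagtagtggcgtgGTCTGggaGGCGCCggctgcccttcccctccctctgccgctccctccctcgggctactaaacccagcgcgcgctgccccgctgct
Tgfb2: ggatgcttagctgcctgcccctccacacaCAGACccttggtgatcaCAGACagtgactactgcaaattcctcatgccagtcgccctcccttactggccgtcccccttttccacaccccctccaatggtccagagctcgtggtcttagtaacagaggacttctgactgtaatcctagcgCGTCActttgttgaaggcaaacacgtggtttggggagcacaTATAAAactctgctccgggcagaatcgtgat
The motifs searched were GTCTG (the SMAD box, found in 42.2% of 32851 promoter windows of this length), GGCGCC (a GC-rich SMAD1/5 element, 9.59%), TGANTCA (AP-1, 6.75%), TGACG (the core of the cAMP response element, 17.8%), GGGCGG (the Sp1 GC box, 32.7%) and TATAAA (the TATA box, 12.4%). No capital run in these windows belongs to more than 1 motif. The Bmp6 window had 1 SMAD box, 1 GC box, 22 CpG dinucleotides and a GC content of 68.8%, against a median of 52.4% over all windows. The Tgfbi window, with a GC content of 62.4%, held 2 SMAD boxes, 1 GGCGCC element and 1 GC box. The Tgfb2 window was less GC-rich at 53.6% and was the only one of the 3 with a TATA box, 31 to 26 bases before the start, beside 2 SMAD boxes and 1 TGACG core. A match describes the letters and not the binding of a factor. Of the 10 members, 7 were matched in the RefSeq promoter table. In the expression table (mm10) the genes lie at chr7:25687002-25704996 (Tgfb1), chr1:186623186-186705992 (Tgfb2), chr12:86056743-86079041 (Tgfb3), chr13:16014475-16027211 (Inhba), chr1:119415465-119422248 (Inhbb), chr2:133552159-133562896 (Bmp2), chr14:46383520-46390599 (Bmp4), chr13:38345716-38499728 (Bmp6), chr13:114452262-114458951 (Fst) and chr13:56609603-56639339 (Tgfbi). GC contents of the other matched windows ran from 43.2% for Inhba to 75.2% for Tgfb1, whose window held 5 GC boxes.

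Between genotypes, Tgfbi rose and Bmp6 fell in both tissues, and Tgfb2 rose in BAT. Of the 9 members that passed the filter on low counts in iWAT, 1 was called higher (background 11.3% of 14604 genes) and 1 lower (background 10.7%). In BAT 2 of 9 were called higher (background 18.2% of 14344 genes) and 1 lower (background 13.3%). The ranges of both genotypes were separate for 3 of the 9 in iWAT (background 39%) and 4 of the 9 in BAT (background 47.6%). These shares are near the background and are not a result about the members as a group. The median log2 fold change of the 9 was -0.06 in iWAT and 0.72 in BAT, beside 0.01 and -0.03 over all genes tested. Inhba did not pass the filter in any comparison of all its libraries.

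**Figure D1:**
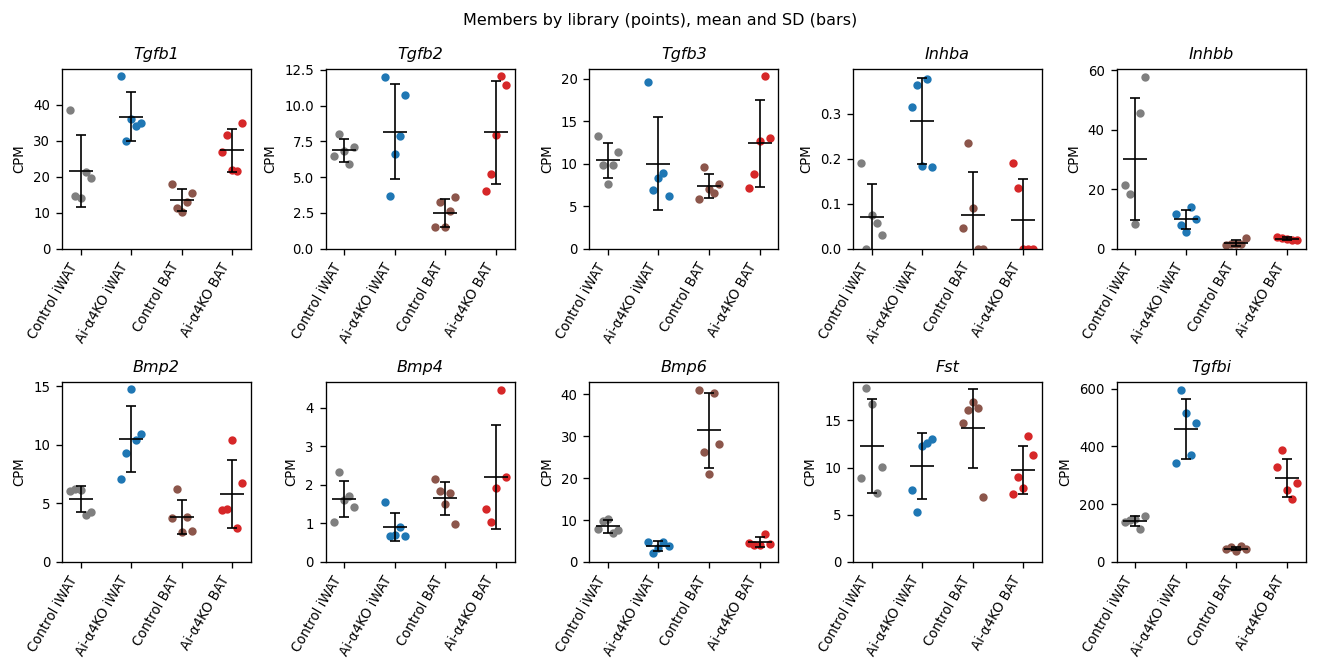
CPM (linear axis from 0) of each of the 10 members in the 20 libraries, by group. Points are libraries, horizontal bars the mean and vertical bars the SD (n = 5 per group). Tgfbi is higher and Bmp6 lower in every Ai-α4KO library than in any Control library of the same tissue, and Inhbb is widely spread in Control iWAT.

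**Figure D2:**
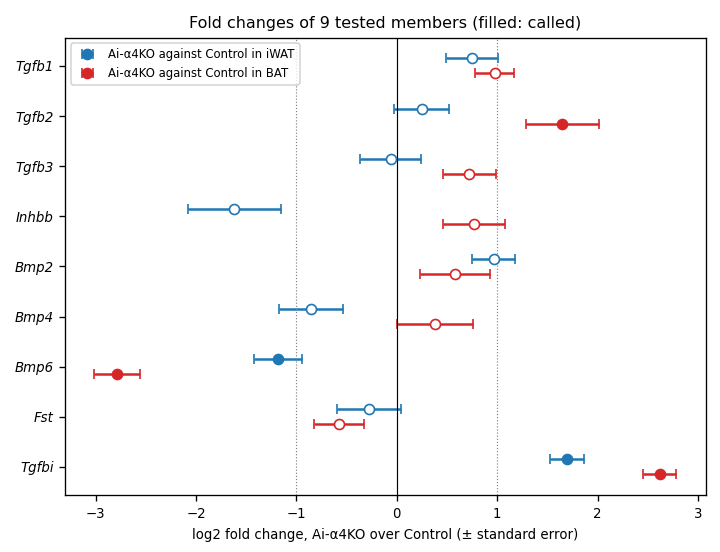
Log2 fold change of Ai-α4KO over Control (x axis, ± standard error) for the 9 tested members in iWAT (blue) and BAT (red). Filled points passed both thresholds and dotted lines mark a fold change of 2. Bmp6 lies furthest to the left and Tgfbi furthest to the right in BAT, and Inhbb lies on opposite sides of 0 in the 2 tissues without being called in either.

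Among the TGF-β ligands, Tgfb1, the isoform made widely by immune and stromal cells, was the most abundant per transcript length in all 4 groups, with means from 5.06 FPKM in Control BAT to 17.2 FPKM in Ai-α4KO iWAT. In iWAT its level was 38.5, 14.6, 14.05, 21.2 and 19.8 CPM in Control libraries 1 to 5 and 48.1, 30.03, 35.9, 34.1 and 35.0 CPM in Ai-α4KO libraries 1 to 5. Only Control library 1 reached into the Ai-α4KO range. The log2 fold change was 0.75 (standard error 0.26, adjusted p = 0.0298 from edgeR), which was not called. Without Control library 1, which also had the highest B cell markers, Tgfb1 was called at 1.01 (adjusted p = 7.54e-04 from edgeR), and without Control libraries 1 and 4 at 1.10 (adjusted p = 0.00101 from edgeR). The part of B and T cells in the level of library 1 was not tested. Macrophage markers (6 genes, all called higher in both tissues) also rose with genotype. In iWAT they summed to 1110 to 1881 CPM in Control and 7233 to 9802 CPM in Ai-α4KO libraries. Within Ai-α4KO iWAT library 1 was highest in Tgfb1 and lowest in these markers, and within Ai-α4KO BAT library 4 was lowest in both. The part of the macrophage markers in the Tgfb1 values of either tissue was not tested.

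In BAT Tgfb1 was at 17.98, 11.3, 10.3, 13.0 and 15.3 CPM in Control and 26.8, 31.7, 21.8, 21.5 and 35.0 CPM in Ai-α4KO libraries. The groups did not overlap. Tgfb1 thus differed by 0.98 on the log2 scale (standard error 0.19; edgeR, adjusted p = 8.65e-04), which lay just under the fold threshold, at 1.97-fold. It was called in 8 of 11 other settings, among them DESeq2 (1.01) and the muscle markers as a covariate (1.34), over a range of 0.96 to 1.34. It also passed the threshold without Control library 1 or 5 or without Ai-α4KO library 3 or 4, at log2 fold changes of 1.02 to 1.11. The change in BAT differed from that in iWAT by 0.25 (standard error 0.34, adjusted p = 0.64 for the interaction in edgeR), which was not a called difference.

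Tgfb2, the isoform best known from development of mesenchymal and epithelial tissues, was called higher in Ai-α4KO BAT. Its BAT level was 1.502, 3.29, 1.54, 2.65 and 3.62 CPM in Control and 4.01, 5.22, 7.92, 12.0 and 11.5 CPM in Ai-α4KO libraries. Every Ai-α4KO library was above every Control library, and the Ai-α4KO libraries were the more widely spread. The log2 fold change was 1.65 (standard error 0.36, adjusted p = 0.00177 from edgeR), a 3.14-fold rise. In iWAT the groups overlapped, with 6.48, 7.99, 6.80, 5.90 and 7.12 CPM in Control and 12.0, 3.67, 6.64, 7.88 and 10.7 CPM in Ai-α4KO libraries (log2 fold change 0.25, standard error 0.27, adjusted p = 0.468 from edgeR). The difference between the tissues was 1.43 (standard error 0.47, adjusted p = 0.0465 for the interaction in edgeR) and was not called.

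Skeletal muscle markers moved with genotype in BAT, where 5 of the 6 markers were called higher. The 3 Ai-α4KO BAT libraries highest in Tgfb2 were also the 3 highest in these markers, at 19680 CPM in library 3, 36061 CPM in library 4 and 19504 CPM in library 5. With the mean log2 CPM of the muscle markers as a covariate, Tgfb2 was at 0.59 (standard error 0.42, adjusted p = 0.28 from edgeR) and no longer called. The summed marker level of the genotypes did not overlap in BAT, so the muscle markers and the genotype cannot be told apart there. Adipose progenitor and fibroblast markers (6 genes, 2 called higher) also moved with genotype in BAT without overlap, from 1240 to 2020 CPM in Control to 3716 to 5076 CPM in Ai-α4KO libraries, and their part in the Tgfb2 and Tgfb3 values was not tested. In iWAT Ai-α4KO library 2 had 4383 CPM of these markers, against 7432 to 8972 CPM in the rest of its group. This library was the lowest of its group in Tgfb1, Tgfb2, Bmp6 and Fst and not in the other members, and the part of the markers was not tested.

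Tgfb3, the third isoform, was not called in either tissue. In iWAT Ai-α4KO library 1 stood highest at 19.6 CPM, the other 4 ran from 6.20 to 8.95 CPM, and Control ran from 7.63 to 13.3 CPM (log2 fold change -0.06, standard error 0.31, adjusted p = 0.883 from edgeR). In BAT it was at 7.34 ± 1.43 CPM in Control and 12.4 ± 5.14 CPM in Ai-α4KO libraries (SD, n = 5), with overlap and the highest value, 20.4 CPM, in library 4 (log2 fold change 0.72, standard error 0.26, adjusted p = 0.0297 from edgeR). These libraries, Ai-α4KO iWAT 1 and Ai-α4KO BAT 4, were also those of their group with the most muscle markers. Control iWAT library 4, with 6505 CPM of muscle markers, was at 9.81 CPM of Tgfb3, inside the range of the other Control iWAT libraries. With these markers as a covariate, Tgfb3 in BAT was at 0.00 (standard error 0.33, adjusted p = 0.996 from edgeR), and no such fit was made in iWAT.

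Inhbb, the subunit of activin B, a product of white adipocytes, was widely spread in Control iWAT. In iWAT it was at 21.3, 18.4, 8.26, 45.6 and 57.7 CPM in Control and 11.7, 7.91, 5.70, 14.1 and 10.1 CPM in Ai-α4KO libraries. Control library 3 lay inside the Ai-α4KO range and Control libraries 4 and 5 far above it. Adipocyte markers summed to 39709 and 40911 CPM in Control libraries 4 and 5 and to 27508 to 36430 CPM in the other 3, against 14140 to 21140 CPM in Ai-α4KO iWAT, and their part in the Inhbb values was not tested. At -1.62 on the log2 scale (standard error 0.46, edgeR's adjusted p = 0.0118) the difference missed the threshold, and without Control library 3 it was called at -1.91 (adjusted p = 0.00203 from edgeR). In BAT Inhbb was low, at 1.18, 1.60, 1.54, 1.48 and 3.74 CPM in Control and 4.07, 3.69, 3.39, 2.86 and 2.78 CPM in Ai-α4KO libraries. Only Control library 5 overlapped the Ai-α4KO range. Inhbb was not called in BAT, at 0.77 on the log2 scale (standard error 0.31, edgeR's adjusted p = 0.0461), and without Control library 5 it was called at 1.17 (adjusted p = 9.91e-04 from edgeR). The difference between the tissues was 2.42 (standard error 0.59, adjusted p = 0.0105 for the interaction in edgeR), just outside the threshold. Leaving out any 1 of 6 libraries (Control iWAT 1, 2 or 3, Ai-α4KO iWAT 1 or 4, or Control BAT 5) brought that adjusted p to between 0.00245 and 0.00973.

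Inhba, the subunit of activin A, was near the detection floor, with 0 to 21 counts per library. In iWAT it was at 0.191, 0, 0.0751, 0.0579 and 0.0293 CPM in Control and 0.314, 0.365, 0.184, 0.376 and 0.182 CPM in Ai-α4KO libraries. Control library 1 overlapped the lowest Ai-α4KO values (exact permutation test on log2 CPM, two-sided, p = 0.024, not adjusted for the other members). Fitted in edgeR with no filter, Inhba in iWAT was at 1.92 on the log2 scale (standard error 0.70, adjusted p = 0.0442) and not called. Without Control iWAT libraries 1 and 4 the filter asked for fewer libraries, and Inhba passed it through the Ai-α4KO libraries where it was highest. It was then called at 2.93 (standard error 0.74, adjusted p = 0.00829 from edgeR), on at most 21 counts per library. The same omission removed the Control library highest in Inhba, so nothing is read from this call. In BAT 2 of 5 Control and 3 of 5 Ai-α4KO libraries had no count, and the others ran up to 0.235 CPM (exact permutation test, two-sided, p = 0.84). A count of 0 allows up to 3 reads and covers counting error only.

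Fst was called in neither tissue. Its mean was between 3.08 and 3.83 FPKM in all 4 groups. Fst in iWAT was at 12.3 ± 4.99 CPM in Control and 10.2 ± 3.50 CPM in Ai-α4KO libraries (SD, n = 5), overlapping (log2 fold change -0.28, standard error 0.32, adjusted p = 0.48 from edgeR). In BAT it was at 14.7, 16.1, 17.0, 16.3 and 6.85 CPM in Control and 7.18, 8.96, 7.88, 13.3 and 11.4 CPM in Ai-α4KO libraries. Apart from Control library 5, which was the lowest of the 10, the Control libraries were above the Ai-α4KO libraries (log2 fold change -0.58, standard error 0.25, adjusted p = 0.0622 from edgeR).

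Bmp6, a BMP known from iron homeostasis and from bone and brown fat biology, fell in both tissues and most in BAT. In BAT its level was 41.02, 26.4, 20.98, 40.4 and 28.2 CPM in Control and 4.42, 3.93, 4.02, 6.76 and 4.22 CPM in Ai-α4KO libraries. The lowest Control library was more than 3-fold above the highest Ai-α4KO library. The log2 fold change was -2.79 (standard error 0.23, adjusted p = 8.68e-07 from edgeR), a level 6.89-fold lower. Bmp6 in iWAT was at 7.79, 9.82, 10.3, 6.83 and 7.68 CPM in Control and 4.83, 2.03, 3.33, 4.71 and 3.84 CPM in Ai-α4KO libraries, again without overlap. The iWAT log2 fold change was -1.18 (standard error 0.24, adjusted p = 0.00159 from edgeR), a level 2.27-fold lower.

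The log2 fold change of Bmp6 in BAT minus that in iWAT was -1.57 (standard error 0.33, adjusted p = 0.00463 for the interaction in edgeR), and Bmp6 was the only member whose interaction was called (background 4.86% of 15230 genes). Leaving out any 1 of 9 libraries (Control iWAT 1, Ai-α4KO iWAT 1, 4 or 5, Control BAT 1, or Ai-α4KO BAT 1, 2, 3 or 5) brought the adjusted p to between 0.0101 and 0.0146, with differences of -1.47 to -1.35. The call was also lost with the replicate number as a block (adjusted p = 0.0134 in edgeR), without Control iWAT libraries 1 and 4 (0.0289) and with the muscle markers as a covariate (0.0124), at -1.51, -1.33 and -1.48. Brown adipocyte markers moved alongside it. Of 6 such markers (Ucp1, Cidea, Ppargc1a, Prdm16, Zic1 and Lhx8), 4 of the 6 tested in BAT and 4 of the 5 tested in iWAT were called lower. Their summed level went from 7178 to 11044 CPM in Control BAT to 1187 to 2586 CPM in Ai-α4KO BAT, and from 101 to 807 CPM to 13.1 to 26.5 CPM in iWAT. General adipocyte markers went from 23200 to 26846 CPM to 14741 to 19187 CPM in BAT. The part of these markers in the Bmp6 values was not tested.

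Bmp2, a ligand known for inducing bone and supporting adipocyte differentiation, was not called in either tissue. In iWAT it was at 6.08, 6.25, 6.16, 3.96 and 4.28 CPM in Control and 7.06, 9.32, 14.7, 10.4 and 10.9 CPM in Ai-α4KO libraries. Every Ai-α4KO library was above every Control library, and the difference of 0.97 on the log2 scale (standard error 0.22, edgeR's adjusted p = 0.00303) was 1.95-fold, under the fold threshold. It reached the threshold, at 1.01 to 1.08, without Control library 2 or Ai-α4KO library 1 or 2. In BAT the genotypes overlapped, at 3.80 ± 1.46 and 5.79 ± 2.90 CPM (SD, n = 5; log2 fold change 0.58, standard error 0.35, adjusted p = 0.168 from edgeR).

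Bmp4, which commits stem cells to the adipocyte lineage, was the least abundant of the tested members in iWAT, at 0.732 FPKM in Control. In iWAT it was at 1.04, 2.33, 1.62, 1.71 and 1.44 CPM in Control and 1.54, 0.684, 0.709, 0.895 and 0.674 CPM in Ai-α4KO libraries. Ai-α4KO library 1 alone overlapped Control. Bmp4 was not called in iWAT, at -0.85 on the log2 scale (standard error 0.32, edgeR's adjusted p = 0.0387), and without Ai-α4KO library 1 it was called at -1.13 (adjusted p = 0.00581 from edgeR). In BAT Bmp4 ran from 0.995 to 2.14 CPM in Control and from 1.04 to 4.47 CPM in Ai-α4KO libraries (log2 fold change 0.38, standard error 0.38, adjusted p = 0.403 from edgeR), with the highest value in library 4. Ai-α4KO iWAT library 1 had 3579 CPM of muscle markers against at most 81.9 CPM in the other 4, and Ai-α4KO BAT library 4 had the most of its group. Control iWAT library 4, with 6505 CPM of muscle markers, was at 1.71 CPM of Bmp4, inside the range of the other Control iWAT libraries. With these markers as a covariate Bmp4 in BAT was at 0.10 (adjusted p = 0.914 from edgeR), and no such fit was made in iWAT. Bmp4 overlaps Gm15217 on the other strand in the expression table, and whether the counting used strand is not given in the sources used here.

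Tgfbi, which binds collagens and integrins in the matrix, was the most abundant member in every group and rose in both tissues. In BAT its level was 43.2, 51.5, 39.1, 53.4 and 43.2 CPM in Control and 327, 386, 248, 217 and 272 CPM in Ai-α4KO libraries. The lowest Ai-α4KO library was more than 4-fold above the highest Control library. The log2 fold change was 2.62 (standard error 0.17, adjusted p = 1.58e-07 from edgeR), or 6.14-fold. Tgfbi in iWAT was at 139, 146, 150, 114 and 160 CPM in Control and 341, 595, 517, 371 and 480 CPM in Ai-α4KO libraries, also without overlap. The iWAT log2 fold change was 1.69 (standard error 0.17, adjusted p = 1.29e-05 from edgeR), or 3.24-fold.

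The rise of Tgfbi in BAT exceeded that in iWAT by 0.95 (standard error 0.24, adjusted p = 0.0121 for the interaction in edgeR), which was not called. Leaving out any 1 of 7 libraries (Control iWAT 1, Ai-α4KO iWAT 1, 2 or 3, or Ai-α4KO BAT 3, 4 or 5) brought the adjusted p to between 0.00347 and 0.00848. All 6 macrophage markers (Adgre1, Cd68, Itgam, Csf1r, Mrc1 and Lyz2) were called higher in both tissues. Their summed level was 219 to 502 CPM in Control and 4180 to 6840 CPM in Ai-α4KO BAT, and 1110 to 1881 and 7233 to 9802 CPM in iWAT. The 3 genes whose log2 CPM most resembled that of Tgfbi over the 20 libraries were Dab2 (Pearson r = 0.993), Mrc1 (0.992), the mannose receptor of macrophages, and Alox5ap (0.991), a leukotriene synthesis factor of myeloid cells. After the group means were removed, these values were 0.828, 0.838 and 0.709. Macrophage markers thus moved with Tgfbi between groups. The 3 genes were picked for their likeness to Tgfbi, only Mrc1 of them is a listed marker, and no within-group value was computed for the marker list. The part of the macrophage markers in the Tgfbi level was not tested.

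**Figure D3:**
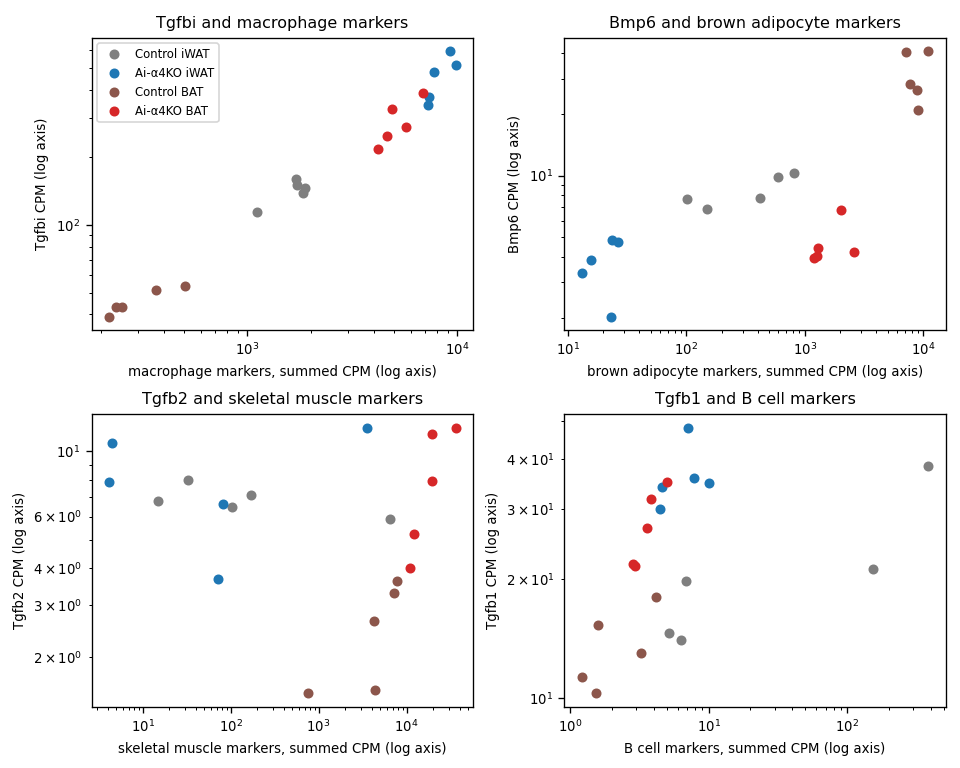
CPM of a member (y axis, log) against the summed CPM of a marker list (x axis, log) in the 20 libraries, colored by group: Tgfbi with macrophage markers, Bmp6 with brown adipocyte markers, Tgfb2 with skeletal muscle markers and Tgfb1 with B cell markers. Tgfbi follows the macrophage markers across all groups, Ai-α4KO BAT libraries lie below Control BAT in both Bmp6 and brown adipocyte markers, and Control iWAT libraries 1 and 4 lie far to the right in B cell markers.

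Between the depots, Bmp6 was higher in BAT and Inhbb, Tgfbi and Tgfb2 were higher in iWAT of Control mice, and Inhbb alone was called in Ai-α4KO mice. These comparisons use the same libraries as those between genotypes. In Control 1 member was called higher in BAT (background 7.22% of 14260 genes) and 3 lower (background 14.7%). Bmp6 was 3.61-fold higher in Control BAT than in Control iWAT (log2 difference 1.85, standard error 0.21, adjusted p = 3.67e-05 from edgeR). Inhbb was 16.1-fold lower in Control BAT (log2 difference -4.01, standard error 0.54, adjusted p = 1.19e-04 from edgeR). Tgfbi was 3.16-fold lower (-1.66, standard error 0.12, adjusted p = 4.29e-06 from edgeR) and Tgfb2 2.79-fold lower (-1.48, standard error 0.26, adjusted p = 7.2e-04 from edgeR) in Control BAT. In Ai-α4KO libraries none was called higher in BAT (background 8.40% of 14703 genes) and only Inhbb was called lower (background 3.09%), at 2.86-fold (-1.51, standard error 0.24, adjusted p = 9.37e-04 from edgeR). This call was lost with the muscle markers as a covariate (-1.35, adjusted p = 0.119 from edgeR) and, by size, with limma on log2(FPKM + 1) (-0.90). The summed muscle markers of the depots did not overlap in Ai-α4KO libraries, so muscle markers and depot cannot be told apart there. Of the 4 members called between the depots in Control, the change of this difference with genotype is the interaction above, which was called for Bmp6 alone. Among 11 other settings that interaction was called in 8 for Bmp6, 8 for Tgfbi, 6 for Inhbb and 1 for Tgfb2. With 0 members called higher in BAT by edgeR in the Ai-α4KO libraries, DESeq2 called 1, Bmp4.

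Per transcript length, Bmp6 and Inhbb took different places among the members from group to group. In Control iWAT Tgfbi (47.5 FPKM) was followed by Tgfb1 (9.41), Inhbb (6.49), Fst (3.82), Bmp6 (3.15) and Tgfb3 (2.78), and from Tgfb1 down to Tgfb3 each overlapped the next in its range over 5 libraries. In Control BAT Bmp6 was the second at 10.2 FPKM, below Tgfbi at 13.4, with overlapping libraries, and Inhbb was the ninth at 0.350. In both Ai-α4KO groups Tgfbi (168 FPKM in iWAT and 99.6 in BAT) and Tgfb1 (17.2 and 12.0) were first and second without overlap with each other or with the third. Bmp6 was the eighth in Ai-α4KO iWAT at 1.53 FPKM and the fifth in Ai-α4KO BAT at 1.75 FPKM. Inhba was last in every group, at 0.0363 to 0.182 FPKM.

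**Figure D4:**
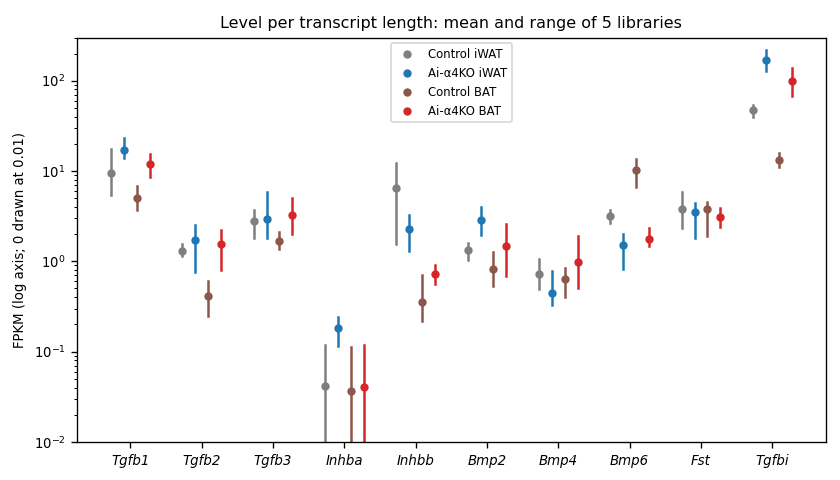
FPKM (log axis, 0 drawn at 0.01) of the 10 members, with the mean (point) and the range (line) of 5 libraries in each group. Tgfbi is highest and Inhba lowest in every group, and the level of Bmp6 is higher in Control BAT than in the other 3 groups.

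Levels of the members were also set against each other over the 20 libraries, as a description with no test, since libraries of a group share their treatment. Bmp6 and Tgfbi ran opposite (Pearson r of log2 CPM = -0.96), and much of this lay between groups, with -0.38 once group means were removed. Of all pairs of tested members, the highest value within groups was that of Tgfb2 and Tgfb3 (0.64). By the same measure, the genes most like Bmp6 were Inpp1 (r = 0.975), Mrpl4 (0.966), which encodes a mitochondrial ribosomal protein, and Cyp27a1 (0.964), a mitochondrial sterol hydroxylase. With group means removed, these values were 0.677, 0.524 and 0.631. The genes most like Inhbb were Cmklr1 (0.962), the chemerin receptor, Agpat9 (0.952) and Twist2 (0.950). Tgfb1 was closest to Ptpn18 (0.958), Nuak2 (0.956) and Ccdc88b (0.951), Tgfb2 to Prss23 (0.899), 2510009E07Rik (0.897) and Tmem100 (0.891), and Tgfb3 to Sertad4 (0.882), Mfap4 (0.811), a microfibril protein, and Obsl1 (0.788). Bmp2 was closest to Slc35d2 (0.914), Sri (0.900) and Elf1 (0.890), Bmp4 to Large (0.888), Slc37a4 (0.867) and Fxyd1 (0.836), and Fst to Cdc14b (0.764), Ecm2 (0.741) and Zc3h6 (0.739). With group means removed, the values listed here from Inhbb to Fst ran from 0.677 to 0.874.

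The other genes of the pathway were read from lists by role. Their counts of calls stand against the shares of all genes given above, 11.3% higher and 10.7% lower in iWAT and 18.2% and 13.3% in BAT, and on lists this short nothing is read from them about a list. Among 25 other ligands, 13 were tested in each tissue, with 2 calls up and 1 down in iWAT and 4 up and 1 down in BAT (median log2 fold change 0.07 and 0.50, beside 0.01 and -0.03 over all genes tested, as for each list below). Gdf15, a stress-induced hormone that acts through the GFRAL receptor of the hindbrain, was below 1 CPM in every Control iWAT library and at 15.1 to 44.6 CPM in Ai-α4KO iWAT (log2 fold change 6.09, standard error 0.73, adjusted p = 4.67e-05 from edgeR). In BAT it went from 0.0906 to 2.504 CPM in Control to 16.6 to 48.8 CPM (4.71, standard error 0.69). Gdf3, a ligand of the ALK7 receptor found in adipose tissue macrophages, rose from 0.102 ± 0.0785 to 7.20 ± 2.04 CPM in BAT and from 0.291 ± 0.290 to 4.86 ± 1.31 CPM in iWAT (SD, n = 5). Gdf5, a BMP-like ligand, fell in BAT from 8.12 ± 4.23 to 0.683 ± 0.359 CPM (log2 fold change -3.61, standard error 0.52). Mstn, or myostatin, which limits muscle growth, was called higher in BAT at 2.38 (adjusted p = 0.00684 from edgeR). It was at -0.24 with the muscle markers as a covariate, and its call was lost without any 1 of 4 libraries (Control BAT 3 or 4, or Ai-α4KO BAT 3 or 4), at log2 fold changes of 1.81 to 2.32, and with the replicate block (2.40) or one fit of all libraries (2.42).

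Of the 14 receptors, 1 of 13 tested was called lower in iWAT and none higher, and 2 of 14 were called higher and 2 lower in BAT (median -0.05 and -0.08). Acvr1c, which encodes ALK7, the type I receptor of adipocytes for activin B and GDF3, fell from 174 ± 28.1 to 48.4 ± 19.9 CPM in iWAT and from 128 ± 19.5 to 35.8 ± 10.95 CPM in BAT (SD, n = 5), log2 fold changes of -1.85 (standard error 0.24) and -1.88 (standard error 0.19). Adipocyte markers fell alongside it in iWAT, from 27508 to 40911 CPM to 14140 to 21140 CPM, with 5 of 7 called lower there and 4 of 7 in BAT, and their part in the Acvr1c values was not tested. Acvr1b, the type I receptor ALK4 that activins use in many tissues, rose in BAT from 8.01 ± 2.36 to 19.6 ± 4.91 CPM (1.25, standard error 0.23), where the call was lost with the muscle markers as a covariate (0.81), and was at 0.58 in iWAT, where it was not called. Eng, the endothelial coreceptor endoglin, fell in BAT by 1.01 on the log2 scale and missed the fold threshold, at -0.94 to -0.92, without Control BAT library 1 or Ai-α4KO BAT library 3 or 4. It also missed the threshold in 8 of 11 other settings, at -0.98 to -0.69. Endothelial markers (5 genes) summed to 678 to 938 CPM in Control and 272 to 354 CPM in Ai-α4KO BAT (3 called lower), and to 374 to 483 and 221 to 267 CPM in iWAT (2 called lower). Their part in the values of Eng, and of Smad6 below, was not tested.

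Among the 8 Smads, all tested in both tissues, Smad6 alone was called between genotypes, lower in both (list medians -0.35 and -0.22). Smad6 encodes an inhibitory Smad that is itself induced by BMP signals. It went from 5.01 ± 2.26 to 1.63 ± 0.516 CPM in iWAT and from 8.38 ± 5.68 to 2.80 ± 1.37 CPM in BAT (SD, n = 5), log2 fold changes of -1.63 (adjusted p = 0.00206 from edgeR) and -1.62 (adjusted p = 0.00591 from edgeR). The BAT groups overlapped and the call was lost without any 1 of 6 libraries (Control BAT 3 or 5, or Ai-α4KO BAT 1, 2, 3 or 4), at -1.66 to -1.11, and with library size as the scaling (-1.37). Smad3, the transcription factor downstream of TGF-β and activin receptors, is named after its values were seen, for its called interaction (1.06, standard error 0.25, adjusted p = 0.00931 from edgeR). It was at 32.3 ± 10.8 CPM in Control and 57.2 ± 7.52 CPM in Ai-α4KO BAT without overlap, and at 37.0 ± 6.42 and 31.4 ± 4.04 CPM in iWAT (SD, n = 5), and was called in neither tissue. The interaction was lost without any 1 of 11 libraries (Control iWAT 2, 4 or 5, Ai-α4KO iWAT 2, 3 or 5, Control BAT 1, 2, 3 or 4, or Ai-α4KO BAT 4), at 0.95 to 1.16. It was also lost with the replicate block (1.10), without Control iWAT libraries 1 and 4 (1.02) and with the muscle markers as a covariate (0.88), with which Smad3 in BAT was at 0.23. Of 12 secreted antagonists, 7 were tested in iWAT with no call and 9 in BAT with 2 calls up and none down (median -0.38 and 0.72). In iWAT 3 of the 7 had an unadjusted p under 0.05 in edgeR, and DESeq2 also called 0. Nog, which encodes the BMP antagonist noggin, rose in BAT from 0.433 ± 0.243 to 4.26 ± 3.01 CPM (3.25, standard error 0.58), and Chrdl2, a chordin-like BMP antagonist, from 0.238 ± 0.128 to 1.19 ± 0.726 CPM (2.25, standard error 0.51). With the muscle markers as a covariate, Nog was at 2.06 (adjusted p = 0.0834 from edgeR) and Chrdl2 at 0.80 (adjusted p = 0.429 from edgeR), and Chrdl2 was also not called in one fit of all libraries (2.29).

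Of 14 genes for latency and activation of TGF-β, 14 were tested in iWAT with 1 call up and 3 down, and 13 in BAT with 5 up and 3 down (median 0.34 and 0.58). Nrros, which tethers latent TGF-β1 on macrophages and microglia, rose from 46.4 ± 13.2 to 171 ± 6.53 CPM in iWAT and from 12.4 ± 3.31 to 90.6 ± 18.5 CPM in BAT (SD, n = 5), log2 fold changes of 1.87 (standard error 0.17) and 2.83 (standard error 0.21). Macrophage markers rose alongside it in both tissues, as given with Tgfbi, and their part in the values of Nrros, and of Gdf3 above, was not tested. Ltbp2, a microfibril protein of the latent TGF-β binding protein family, fell by 2.14 in iWAT and 2.17 in BAT on the log2 scale (standard errors 0.29 and 0.19). Thbs1, or thrombospondin-1, an activator of latent TGF-β, rose in BAT from 25.99 ± 15.4 to 123 ± 52.6 CPM (2.21, standard error 0.41). In iWAT Thbs1 was at 1.37 (adjusted p = 0.0401 from edgeR) with Control library 1 at 182 CPM and the other 4 at 24.1 to 60.3 CPM, and without that library it was called at 2.14. Itgb6, the integrin subunit of a TGF-β activating integrin, rose in BAT from 4.19 ± 2.35 to 28.9 ± 18.4 CPM (2.75, standard error 0.57) and was at 0.34 (adjusted p = 0.495 from edgeR) with the muscle markers as a covariate.

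Target genes moved in both directions. Of 9 genes known as TGF-β or activin targets, all tested, the calls were 2 up and 1 down in iWAT and 2 up and none down in BAT (median -0.01 and 0.13). Tgif1, a transcriptional corepressor of SMAD2 and SMAD3, rose by 1.65 in iWAT and 2.21 in BAT on the log2 scale (standard errors 0.20 and 0.16). Fn1, which encodes fibronectin, rose in BAT from 88.3 ± 38.5 to 577 ± 136 CPM (2.67, standard error 0.28). In iWAT it was called at 1.19 (adjusted p = 0.00611 from edgeR), with overlapping groups, and the call was lost without any 1 of 8 of the 10 libraries, all but Control iWAT 2 and Ai-α4KO iWAT 2, at 1.03 to 1.21, and with upper-quartile scaling (1.10), the replicate block (1.18) or without Control iWAT libraries 1 and 4 together. Of 10 BMP targets, all tested, the calls were 1 up and 2 down in iWAT and none up and 3 down in BAT (median -0.70 and -0.78). Atoh8, a basic helix-loop-helix factor, fell from 4.17 ± 1.17 to 1.63 ± 0.728 CPM in iWAT (-1.36) and from 13.0 ± 7.03 to 4.31 ± 1.47 CPM in BAT (-1.63). The iWAT call was lost without Control iWAT library 3 or Ai-α4KO iWAT library 2, 3 or 4, at -1.38 to -1.26, and without Control iWAT libraries 1 and 4 together (-1.39). The BAT call was lost with the muscle markers as a covariate (-0.98, adjusted p = 0.11 from edgeR). The part of the endothelial markers, which were lower in both tissues, was not tested for Atoh8. Id2, an inhibitor of basic helix-loop-helix factors, rose in iWAT from 34.1 ± 6.54 to 133 ± 35.2 CPM (1.95, standard error 0.21) and was at 84.6 ± 41.5 and 86.5 ± 29.3 CPM in BAT. The interaction of Id2 was called (-1.93, standard error 0.41, adjusted p = 0.00493 from edgeR), and it was lost without any 1 of 8 libraries (Control iWAT 1, Ai-α4KO iWAT 2, 3, 4 or 5, Control BAT 3, or Ai-α4KO BAT 1 or 2), at -1.90 to -1.71 with adjusted p between 0.0101 and 0.0149. It was also lost in both limma settings (-1.69 and -1.73), without Control iWAT libraries 1 and 4 (-1.96) and with the muscle markers as a covariate (-1.95).

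**Figure D5:**
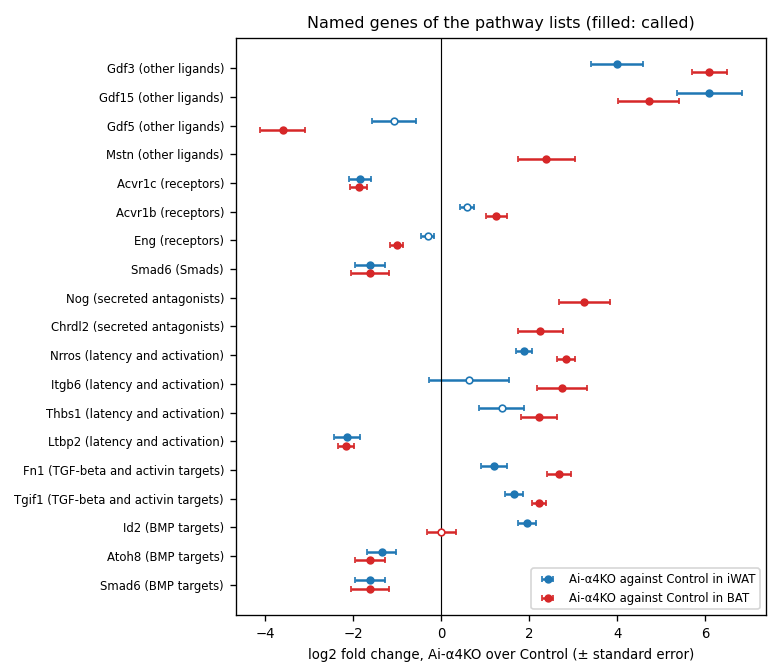
Log2 fold change of Ai-α4KO over Control (x axis, ± standard error) in iWAT (blue) and BAT (red) for the genes of each pathway list named by rule, with the list in brackets. Filled points passed both thresholds, and a missing point was not tested. Gdf3 and Gdf15 rose most, Acvr1c, Smad6, Ltbp2 and Atoh8 fell in both tissues, and Id2 rose in iWAT only while staying near 0 in BAT.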

How the data were processed

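RNA of iWAT and BAT from 5 Control and 5 Ai-α4KO mice per tissue was sequenced as stranded poly(A) libraries. The authors deposited expected counts per gene, partly fractional, and FPKM values, which are scaled to transcript width and library total. Per the submitters' processing notes, bcl2fastq 2, STAR 2.5.3a and the build mm10 were used, and the counting tool is not given in the sources used here. Rounded counts entered edgeR 4.0.16 under R 4.3.3 (TMM, filterByExpr, quasi-likelihood test, prior count of 2 for log2 CPM), over all genes that passed the filter, with each comparison fitted on its own libraries and the interaction on all 20. A call needed an adjusted p under 0.01 together with a change of 2-fold or more. DESeq2 1.42.0 and limma 3.58.1 on log2(FPKM + 1) or log2(FPKM + 0.1) were alternatives, with other scalings and filters, a replicate block, a muscle covariate and leaving out libraries. Inhba was tested by exact permutation. The fits were tested on simulated data. Depths of 24023371 to 50384446 counts limit the lowest genes, with a floor of 3 counts. Groups follow the sample labels. Named genes were all members, Igbp1, and up to 4 called genes per pathway list with the largest change and separate groups, plus the 3 genes most correlated with each member. Members and lists were chosen with earlier results of these data known, and the promoter motifs after the fold changes were seen. Some genes of the pathway lists are not reported here and were left out of the list counts and medians.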

Additional observations from a re-analysis of the deposited data

Results flagged for a closer look

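Of the values by library, 3 stood away from the others of their group by Dixon's ratio of the gap to the range on log2 CPM, above the 95% critical value for 5 samples. They were Inhbb in Control BAT library 5 (ratio 0.740, 3.74 CPM against 1.18 to 1.60 CPM in the other 4), Fst in the same library (0.840, 6.85 CPM against 14.7 to 17.0 CPM) and Bmp6 in Ai-α4KO BAT library 4 (0.785, 6.76 CPM against 3.93 to 4.42 CPM). Chance flags about 1 in 20 groups, and 40 were examined. On untransformed CPM the same 3 passed, with ratios of 0.836, 0.774 and 0.828, and so did Tgfb3 (0.795) and Bmp4 (0.746) in Ai-α4KO iWAT library 1.

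The genotype effect differed between the tissues for Bmp6, by -1.57 on the log2 scale (BAT minus iWAT, adjusted p = 0.00463 from edgeR), for Id2, by -1.93 (adjusted p = 0.00493 from edgeR), and for Smad3, by 1.06 (adjusted p = 0.00931 from edgeR). All 3 calls were lost without single libraries, as given with each gene. Why these values differ was not tested.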

How the results depend on the processing

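Bmp6 and Tgfbi in both tissues and Tgfb2 in BAT kept their direction under every alternative run, and Tgfb2 lost its call with the muscle covariate (0.59). On log2(FPKM + 1) with limma, Tgfb2 in BAT (0.82) and Bmp6 in iWAT (-0.73) fell short of 2-fold, as did Smad6 and Atoh8 in both tissues, Chrdl2 in BAT, and Tgfb2 between depots in Control (-0.71). Against 1 member called higher in iWAT, library size without normalization factors gave 2, limma on log2(FPKM + 0.1) 2, and leaving out Control iWAT libraries 1 and 4 gave 3, with Tgfb1 and Inhba added (1 to 2 without single libraries). Inhba entered that count only because the smaller Control group eased the filter, and nothing is read from its call. Against 1 lower, upper-quartile scaling, DESeq2, an adjusted p below 0.05, the replicate block and one fit of all libraries each gave 2 and limma on log2(FPKM + 1) 0 (1 to 2 without single libraries). In BAT, 2 to 4 members were called higher without single libraries, 4 without Control BAT library 5, and 6 of the 11 other settings gave 3. Tgfb1 in BAT was called in 8 of those 11. Against 0 higher interactions in edgeR, library size, upper-quartile scaling, at least 10 counts and DESeq2 each gave 2, no filter, limma on log2(FPKM + 0.1), the replicate block and leaving out Control iWAT libraries 1 and 4 each 1, and an adjusted p below 0.05 gave 3 (0 to 2 without single libraries). The 1 lower interaction, Bmp6, went to 0 with the replicate block (adjusted p = 0.0134 in edgeR), without Control iWAT libraries 1 and 4, and with the muscle covariate (0 to 1 without single libraries). Between depots in Ai-α4KO, DESeq2, an adjusted p below 0.05 and one fit each gave 1 higher, and limma on log2(FPKM + 1) and the muscle covariate each 0 lower. The values that changed sign, among those printed in the text, were uncalled in the altered setting, and differences between depots of uncalled members are not printed. Tgfb3 in iWAT was at 0.06 with library size and -0.46 to 0.08 without single libraries, Itgb6 in iWAT at -0.64 to 1.72 and Bmp4 in BAT at -0.00 to 0.56. Mstn in BAT was at -0.24 with the muscle covariate. Id2 in BAT was at 0.25 with library size, 0.04 with upper-quartile scaling, 0.05 with at least 10 counts, 0.03 with DESeq2 and with one fit, 0.32 with both limma settings, 0.06 with the replicate block, and -0.18 to 0.32 without single libraries. The interaction of Tgfb1 was at -0.05 and that of Fst at 0.15 without Control iWAT libraries 1 and 4, and Fst at 0.08 with the muscle covariate. Library size without normalization factors moved the median log2 fold change of the genes recomputed by 0.12 in iWAT and 0.26 in BAT. Libraries with the same number correlated at -0.451 to 0.244 after removal of group means, below 0.1 for some pairs in each comparison, so the numbers were not taken to pair the libraries, and the labels do not say whether iWAT and BAT share mice. Between depots, 4 of 10 libraries correlated best with their own number. Other causes of these changes were not tested.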
